A study of Mus musculus with 10 samples.

Results

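The genes described here encode the heat shock proteins and the chaperones of the endoplasmic reticulum (ER), with the main sensors that control them. They were 42 genes chosen by symbol, among 55335 genes in the deposited count table, and all 42 were found and passed the filter on low counts, which left 16167 genes for testing. By the compartment in which their products work, 19 were cytosolic, 3 mitochondrial and 19 of the ER, and the remaining gene was Hsf1, the transcription factor of the heat shock response. RNA of 10 mouse mammary tumours was sequenced, all of the Wap-Myc model, in which Myc is driven by Wap, the promoter of a milk protein gene that is active in pregnancy and lactation. All 10 tumours grew from Wap-Myc mammary epithelial cells, on the FVB strain background, that had been transduced with the lentiviral construct pIND21-HPN for inducible hepsin, a serine protease of epithelial cell membranes. The cells had been transplanted into mammary fat pads of hosts aged 3 weeks. From 3 days after transplantation, 5 tumours (DOX) grew in hosts given 2 mg/ml doxycycline with 5% sucrose to drink, and 5 (no_DOX) in hosts on sugar water. Myc was induced at an age of 8 weeks through 2 pregnancies, and every tumour was taken at a diameter of 1 cm.

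Because every tumour carried the construct, doxycycline itself and hepsin induction cannot be told apart. RNA came from whole tumour tissue, so a lower share of a cell type and less RNA per cell cannot be told apart either. The labels do not say that each tumour came from its own host, and p-values then measure the spread between these tumours. Total counts were 14256948 to 20469533 in 9 tumours and 39358457 in DOX 3, and the 42 genes held 0.938 to 1.24% of them. On the first principal component of all genes, no_DOX 4 and DOX 5 stood at the ends. Hpn itself was at 25.8, 25.1, 23.1, 14.2 and 20.4 CPM (counts scaled to the size of the library) in no_DOX 1 to 5 and at 26.5, 46.1, 25.1, 32.8 and 28.2 CPM in DOX 1 to 5. In 4 of 5 DOX tumours Hpn was above every no_DOX tumour, and the labels do not give the species of the transduced coding sequence. The log2 fold change of Hpn (DOX over no_DOX) was 0.55, with an edgeR quasi-likelihood p of 0.0179 and a Benjamini-Hochberg adjusted p of 0.247.

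Chaperones bind unfolded or newly made proteins and help them fold, and many of them are made in larger amounts when unfolded proteins build up. In the cytosol this response runs through Hsf1, which binds heat shock elements, inverted repeats of the block GAA, in the promoters of its targets. In the ER it is the unfolded protein response, whose membrane sensors include Atf6 and Ern1 (IRE1), with Xbp1 as the transcription factor that Ern1 activates by splicing; Atf6 and Xbp1 act through the ER stress response element, in which a CCAAT box and the letters CCACG are 9 bases apart. Mitochondria import their own chaperones, encoded in the nucleus. Secretory cells such as those of the lactating mammary gland depend on a large ER, and cells driven by Myc make protein at a high rate.

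Among these genes, the heat shock element was found in promoters of cytosolic and mitochondrial genes, and the ER stress response element in those of ER genes. A few sequences are printed here because they belong to genes whose values are described further on. RefSeq promoters on GRCm38.p6 were at hand for 33 of the 42 genes, and 250 bases before each start were searched on both strands. A gene with more than 1 promoter counted as having a motif if any of them held it. The heat shock element, written GAANNTTC or TTCNNGAA, was found in 7 of 15 cytosolic genes (46.7%), in 2 of 2 mitochondrial genes and in 0 of 16 ER genes, against 14.5% of all 27025 genes with a RefSeq promoter. Its form with 3 blocks, which contains the shorter form, was in Hspd1 and Hspe1 and in 0.514% of these 27025 genes. The ER stress response element, CCAAT followed 9 bases later by CCACG, was in 7 of 16 ER genes (43.8%), Hspa5, Hsp90b1, Dnajc3, Creld2, Calr, Canx and Pdia6, and in 0 of the 15 cytosolic and 2 mitochondrial genes, against 0.13% of the 27025 genes. A CCAAT box by itself, which every ER stress response element also holds, was in 14 of 16 ER genes (87.5%), 8 of 15 cytosolic genes (53.3%) and 37.5% of the 27025 genes. A match of letters is a description and not a binding site, and the absence of one says only that these letters are not in this window.

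The mitochondrial pair Hspd1 and Hspe1 is shown first, since these genes lie head to head and are read away from each other. They are 30 bases that lie before the RefSeq start of each gene but meet an exon of GENCODE M21, as do those shown for Dnaja1 and Hspa5, since GENCODE places the starts of Hspd1, Dnaja1 and Hspa5 farther upstream. The same bases, chr1:55088053-55088082, are given on the minus strand for Hspd1 and on the plus strand for Hspe1, and capitals mark the GAA and TTC blocks.
Hspd1: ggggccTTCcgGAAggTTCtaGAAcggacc
Hspe1: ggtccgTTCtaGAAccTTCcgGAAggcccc
Among cytosolic genes, Hspa1a (chr17:34972233-34972280, minus strand) and Hspa1b (chr17:34959315-34959362, minus strand) have windows with the same letters, Hspb1 (chr5:135887782-135887849, plus strand) has 2 elements and Dnaja1 (chr4:40722333-40722362, plus strand) has 1. Capitals again mark the GAA and TTC blocks.
Hspa1a: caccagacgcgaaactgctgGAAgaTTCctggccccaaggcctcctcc
Hspa1b: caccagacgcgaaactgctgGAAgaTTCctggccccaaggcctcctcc
Hspb1: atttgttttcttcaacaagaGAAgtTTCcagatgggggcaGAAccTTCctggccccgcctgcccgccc
Dnaja1: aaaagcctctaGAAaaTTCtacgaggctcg
For the ER, the elements of Hspa5 (chr2:34772020-34772048, plus strand), Dnajc3 (chr14:118937807-118937865, plus strand) and Pdia6 (chr12:17266471-17266529, plus strand) read forward, and that of Calr (chr8:84847055-84847113, minus strand) reads in reverse. Capitals mark CCAAT and CCACG, or their reverse complements.
Hspa5: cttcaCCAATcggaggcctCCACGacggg
Dnajc3: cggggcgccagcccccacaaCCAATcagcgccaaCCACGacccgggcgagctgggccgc
Pdia6: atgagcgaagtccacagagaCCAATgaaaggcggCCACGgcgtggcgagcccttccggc
Calr: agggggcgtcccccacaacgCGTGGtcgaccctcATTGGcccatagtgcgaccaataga

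With doxycycline, the chaperone genes of the 3 compartments did not lie on the same side of the controls. All 3 mitochondrial genes and 14 of 19 cytosolic genes were lower in the DOX tumours by their fitted fold change, and 18 of 19 ER genes were higher, although every one of these differences was small. The median log2 fold change (DOX over no_DOX) was -0.24 over the mitochondrial genes, -0.07 over the cytosolic genes and 0.16 over the ER genes, beside 0.00 over all genes tested, of which 49.5% were lower and 50.5% higher. For the cytosolic genes the side depended on the summary. Their mean log2 CPM, each gene centred on the 10 tumours, was 0.03 higher in DOX tumours. Their summed CPM was lower, at 5502 ± 208 against 5892 ± 449 in controls (SD, n = 5 each). Of the 14 lower cytosolic genes, 7 were subunits of the CCT chaperonin. Single genes ran from -0.37 for Hspb8 to 0.53 for Hspb1. The genes of a compartment share the same tumours, so these counts are not counts of independent observations.

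**Figure D1:**
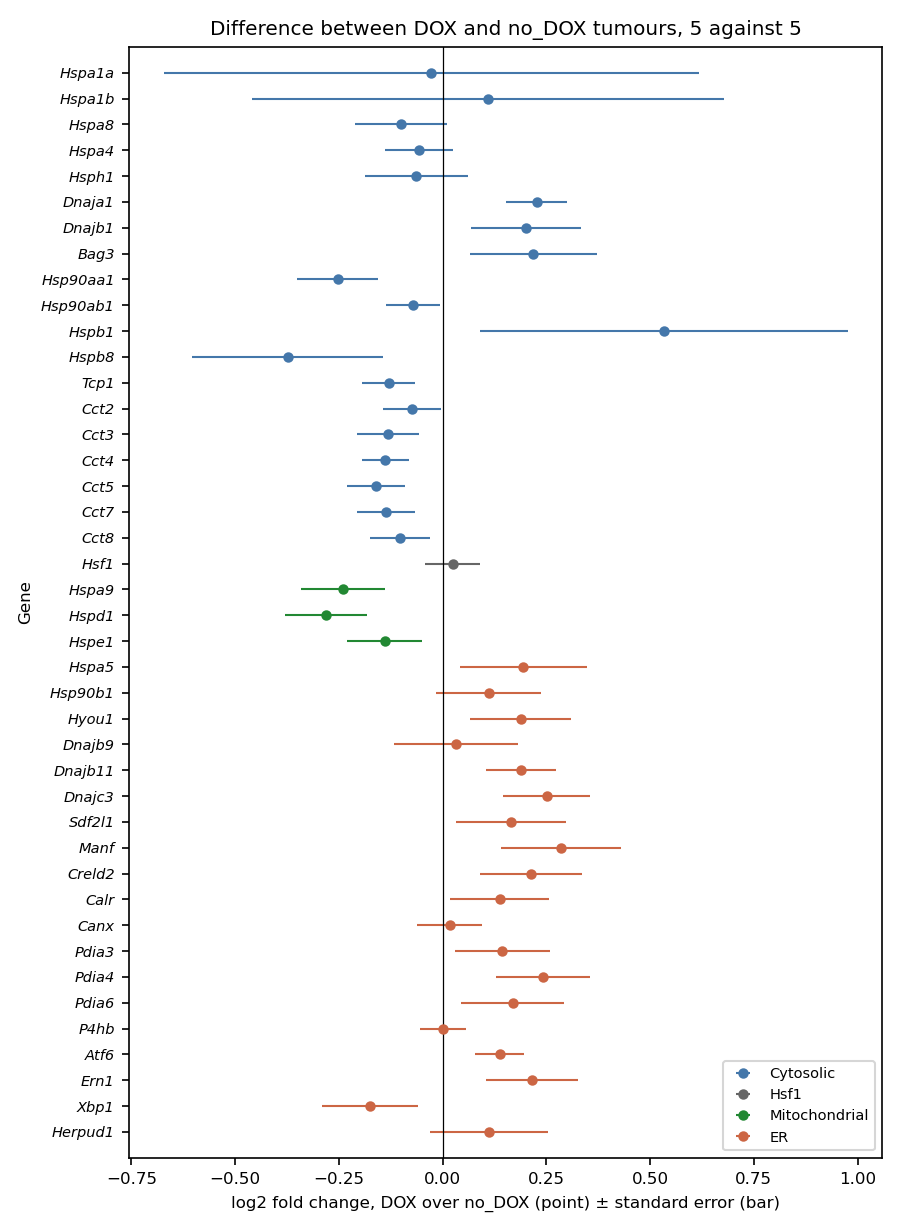
Log2 fold change of each of the 42 genes (x axis, DOX over no_DOX, 5 tumours against 5) with its standard error as a bar, ordered by compartment and role (y axis). The 3 mitochondrial genes and the 7 Cct and Tcp1 genes lie left of 0, and all ER genes but Xbp1 lie right of 0 or, for P4hb, on it; with limma voom and sample weights, Hsp90b1, Canx and P4hb lie left of 0 too.

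None of the 42 genes passed the test. The edgeR quasi-likelihood test with Benjamini-Hochberg adjustment called 0 of 42, with a smallest adjusted p of 0.238, and over all genes it called 0% (0 of 16167). At an unadjusted p under 0.05, 5 chaperone genes were lower, which is 11.9% of the 42 against 7.83% of all genes, and 4 were higher, which is 9.52% against 8.2% of all genes. The lower genes were Hsp90aa1, Cct4, Cct5, Hspa9 and Hspd1, and the higher ones were Dnaja1, Dnajb11, Dnajc3 and Atf6. In this fit both shares were near those over all genes. In the voom fit 13 of the 42 were lower (31% against 14.2% of all genes) and 2 were higher (4.76% against 13%). That fit gave DOX 3 a sample weight of 4.65, against 0.465 to 1.04 for the other DOX tumours and 0.633 to 1.89 for controls. Its DOX values, for these counts and for single genes, therefore leaned on DOX 3. The 2 groups of tumours overlapped for each of the 42 genes, while 2.94% of all genes had groups that did not overlap (1.13% with all DOX tumours below, 1.82% above). DESeq2 called 0 of the 42 genes (1.99% of all genes), and limma voom with sample weights called 1, Hspd1 (4.79% of all genes). With each tumour left out in turn, 1 to 7 of the 42 genes were lower and 1 to 8 were higher at an unadjusted p under 0.05, beside 5.06 to 10.9% and 5.52 to 10.3% of all genes. When both no_DOX 4 and DOX 5 were left out, 1 gene was lower and 1 higher (2.38% each), beside 4.23% and 4.3% of all genes.

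**Figure D2:**
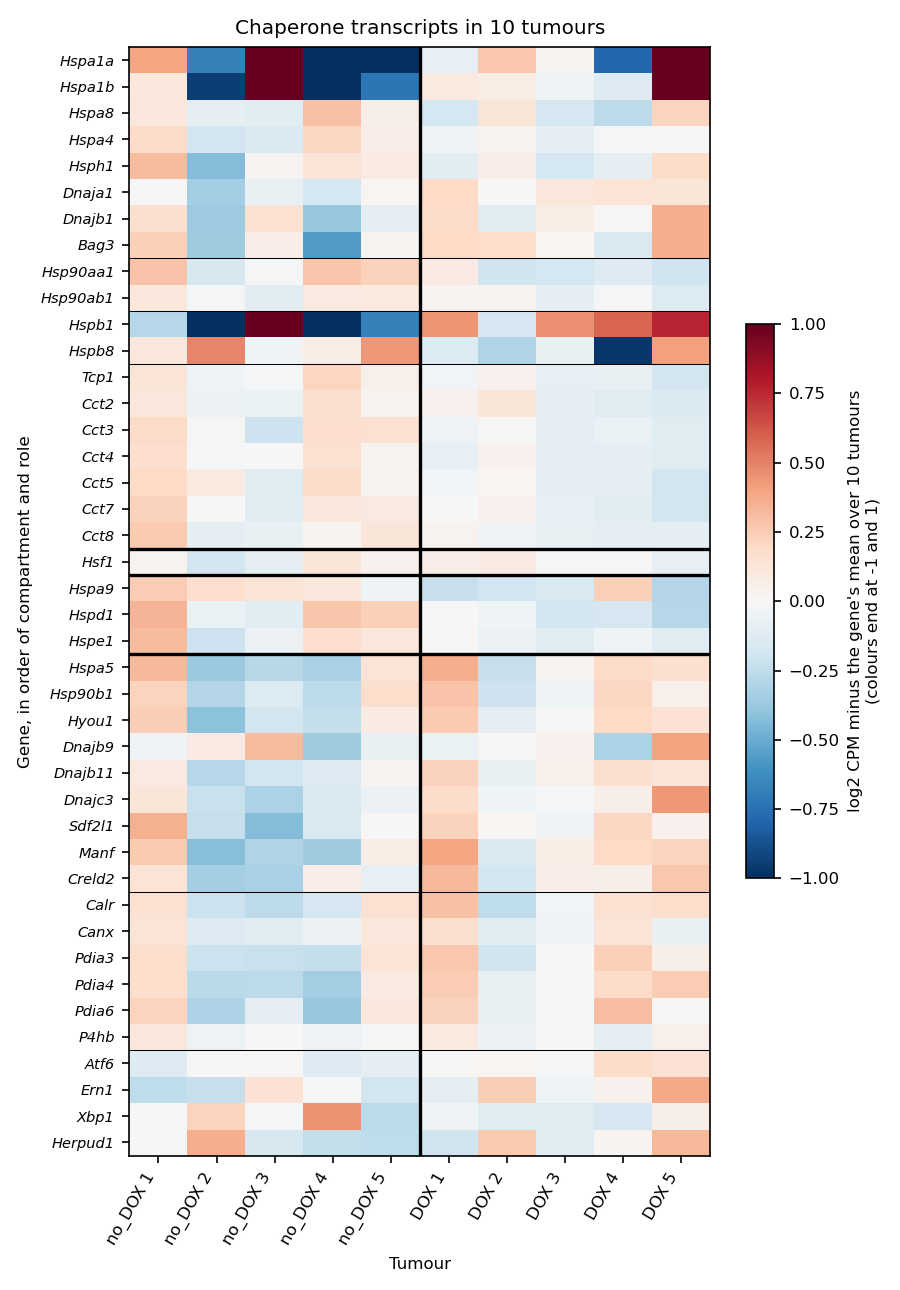
Log2 CPM of each gene (rows, by compartment and role) in each tumour (columns, no_DOX left and DOX right of the line), minus the gene's mean over the 10 tumours; red is above and blue below that mean, and colours end at -1 and 1. Hspa1a, Hspa1b and Hspb1 vary most, and most ER genes are blue in no_DOX 2, no_DOX 3, no_DOX 4, DOX 2 and DOX 3 and red in no_DOX 1, DOX 1, DOX 4 and DOX 5.

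Levels could be compared between genes as CPM per kilobase of exon, averaged over the 10 tumours. Hsp90ab1, the constitutive cytosolic HSP90, was the highest at 697 CPM per kilobase. It was followed by Hspd1 at 196, Calr at 176, Hsp90b1 at 161, P4hb at 160.3 and Hspa8 at 156, and the ± SD ranges of neighbours from Hspd1 to Hspa8 overlapped, while that of Hsp90ab1 stood apart from them. At the other end lay Ern1 at 4.20, Hspa1a at 2.02 and Hspb8 at 0.821 CPM per kilobase. The inducible HSP70 genes Hspa1a and Hspa1b, known for large rises under heat, were thus among the lowest members, while the constitutive Hspa8 was among the highest. Of the stretches of 75 bases (the read length) in Hspa1a, Hspa1b and Hspa8 transcripts, 54.2%, 55.8% and 32.8% also occur in other genes. The levels of these 3 genes are uncertain to that extent. Steadiness between tumours differed too. The highest tumour exceeded the lowest by 1.15-fold for P4hb and by 1.19-fold for Hsp90ab1, and by 9.89-fold for Hspa1a, 9.37-fold for Hspa1b and 5.84-fold for Hspb1.

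**Figure D3:**
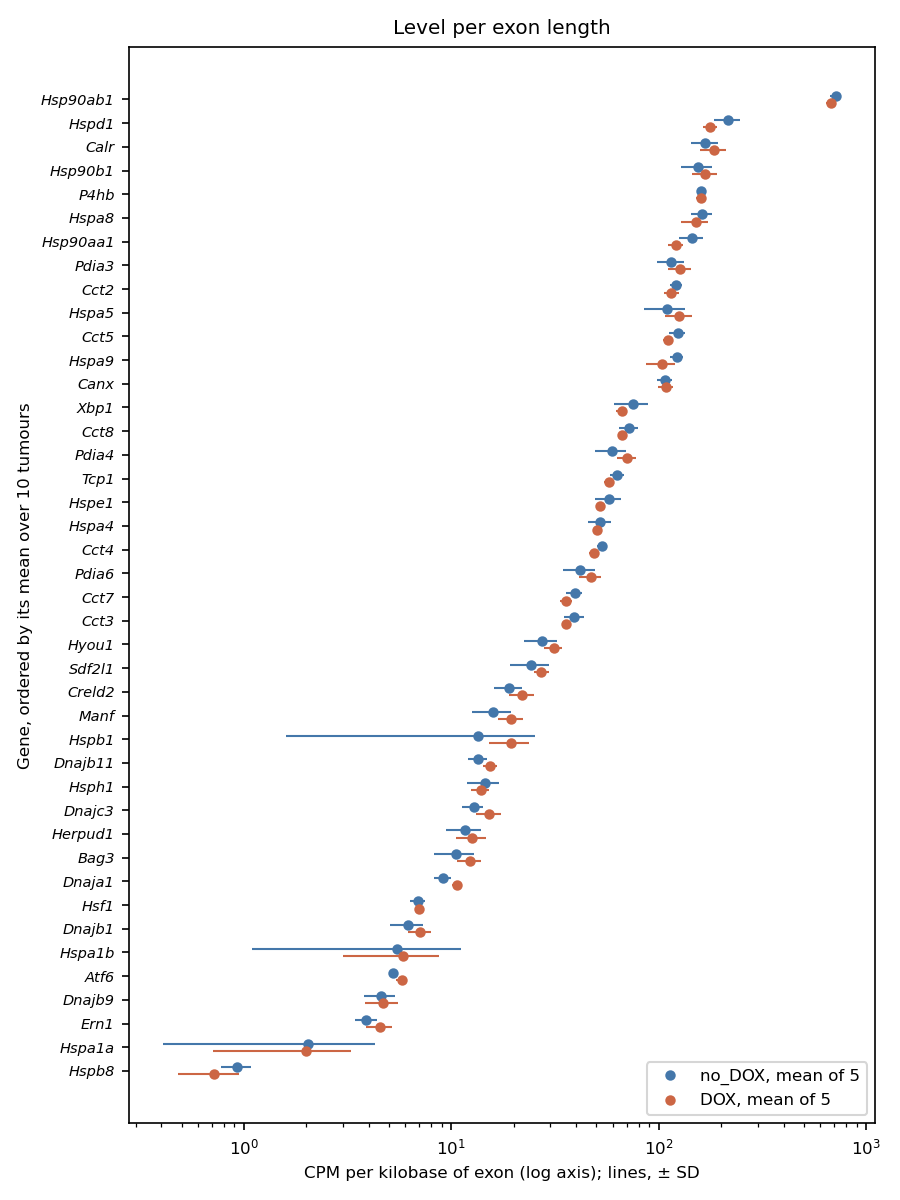
CPM per kilobase of exon for each of the 42 genes (x axis, logarithmic), ordered by the mean over 10 tumours (y axis), with the mean of the 5 no_DOX and the 5 DOX tumours as points and ± SD as lines. The means of both groups lie close together for every gene compared with the range from 0.821 to 697 between genes.

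The 3 mitochondrial chaperone genes were lower in DOX tumours by fitted fold change, and none passed the edgeR test. Hspd1 (HSP60; chr1:55077835-55088243, minus strand, GRCm38) encodes the chaperonin in whose chamber imported proteins fold. It was at 650.0, 491, 476, 623 and 607 CPM in no_DOX 1 to 5 and at 514, 498, 453, 457 and 420.3 CPM in DOX 1 to 5. Every DOX tumour lay below no_DOX 1, no_DOX 4 and no_DOX 5, and 3 of 5 lay below every control, but DOX 1 and DOX 2 overlapped the lower controls. Its mean was 569 ± 80.2 CPM in no_DOX and 468 ± 37.5 CPM in DOX tumours (SD, n = 5 each), a log2 fold change of -0.28 (SE 0.10), with an edgeR quasi-likelihood p of 0.0161 and a Benjamini-Hochberg adjusted p of 0.244. The voom fit gave -0.34 with an adjusted p of 0.0433, and adjusted p ranged from 0.0433 to 0.609 over all alternatives. Of the stretches of 75 bases, the read length, in Hspd1 transcripts, 29.6% also occur in other genes, nearly all in the pseudogene Hspd1-ps3, so its count is uncertain to that extent.

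Hspa9 (mortalin; chr18:34937414-34954357, minus strand), the mitochondrial HSP70 that pulls proteins in through the import channel, was at 575, 541, 527, 518 and 468 CPM in no_DOX 1 to 5 and at 410, 423, 433, 568 and 393 CPM in DOX 1 to 5. In 4 of 5 DOX tumours it was below every control, while DOX 4 was second only to no_DOX 1. On the log2 scale the difference was -0.24 (SE 0.10), with an edgeR quasi-likelihood p of 0.0361 and a Benjamini-Hochberg adjusted p of 0.285. Hspe1 (HSP10; chr1:55088132-55091307, plus strand), the lid of the HSP60 chamber, was at 84.9 ± 11.9 CPM in no_DOX and 77.0 ± 3.08 CPM in DOX tumours, with a log2 fold change of -0.14 (SE 0.09) and an unadjusted edgeR quasi-likelihood p of 0.148, and its groups overlapped. The ratio of Hspd1 to Hspe1 CPM was 6.72 ± 0.379 in controls and 6.08 ± 0.326 with doxycycline (SD, n = 5 each). Their first exons overlap by 112 bases on opposite strands, and without a stated strand setting of the counting, reads from this stretch cannot be told apart.

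Both cytosolic HSP90 genes were lower by fitted fold change, and neither passed the edgeR test. HSP90 takes over partly folded clients such as kinases and steroid receptors from HSP70. The inducible Hsp90aa1 (chr12:110690605-110702728, minus strand) was at 629, 463, 514, 625 and 607 CPM in no_DOX 1 to 5 and at 549, 451, 459, 472 and 450.5 CPM in DOX 1 to 5. DOX 1 stood above the other DOX tumours, 3 of 5 DOX tumours were below every control, and DOX 1 and DOX 4 overlapped the controls. The log2 fold change of Hsp90aa1 was -0.25 (SE 0.10), with an edgeR quasi-likelihood p of 0.0244 and a Benjamini-Hochberg adjusted p of 0.261. Of its stretches of 75 bases, 42.8% also occur in other genes, mainly the pseudogenes Gm12346 and Gm5844. The constitutive Hsp90ab1 (chr17:45567775-45573271, minus strand) was at 2258, 2068, 1931, 2223 and 2230.3 CPM in no_DOX 1 to 5 and at 2128, 2139.9, 1961, 2067 and 1896 CPM in DOX 1 to 5. These groups overlapped widely, and the log2 fold change was -0.07 (SE 0.06), with an edgeR quasi-likelihood p of 0.288 and a Benjamini-Hochberg adjusted p of 0.589.

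All 7 subunits of the CCT chaperonin among the 42 genes, which build the ring that folds actin and tubulin, were lower by fitted fold change in the DOX tumours, under each scaling and with each tumour left out. Their log2 fold changes ran from -0.16 for Cct5 to -0.07 for Cct2, with a median of -0.13. At an unadjusted edgeR p under 0.05, 2 of 7 were lower, beside 7.83% of all genes. Cct4 (chr11:22990519-23003780, plus strand) was at 240.5, 212, 213, 237 and 219 CPM in no_DOX 1 to 5 and at 202, 221, 201, 199 and 197 CPM in DOX 1 to 5. DOX 2 was above 3 of the controls, and the other 4 DOX tumours were below every control. DOX over no_DOX, the log2 fold change was -0.14 (SE 0.06), with an edgeR quasi-likelihood p of 0.0320 and a Benjamini-Hochberg adjusted p of 0.276.

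Cct5 (chr15:31590800-31601804, minus strand) was at 369, 345, 295, 366 and 330.3 CPM in no_DOX 1 to 5 and at 315, 326, 301, 303 and 282 CPM in DOX 1 to 5. The lowest control, no_DOX 3, lay below 4 of 5 DOX tumours, and the other 4 controls lay above every DOX tumour. The log2 fold change of Cct5 was -0.16 (SE 0.07), with an edgeR quasi-likelihood p of 0.0431 and a Benjamini-Hochberg adjusted p of 0.299. Cct2 (chr10:117051001-117063814, minus strand), the subunit with the highest level per exon length, was at 325, 290.2, 288, 337 and 309 CPM in no_DOX 1 to 5 and at 312, 329, 284, 277 and 272 CPM in DOX 1 to 5. Its groups overlapped widely, with a log2 fold change of -0.07 (SE 0.07) and an unadjusted edgeR quasi-likelihood p of 0.320. Tcp1, Cct3, Cct7 and Cct8 had log2 fold changes of -0.13, -0.13, -0.14 and -0.10. The summed CPM of the 7 subunits was 1739 to 2090.4 in controls and 1659 to 1897 with doxycycline.

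Among the 8 genes of the cytosolic HSP70 machinery, 4 were lower and 4 were higher by fitted fold change. Dnaja1 (chr4:40722150-40737149, plus strand), a J-domain protein that delivers substrates to HSP70 and starts its ATP cycle, was at 84.5, 67.0, 80.5, 75.1 and 86.0 CPM in no_DOX 1 to 5 and at 97.5, 84.9, 91.9, 93.1 and 92.3 CPM in DOX 1 to 5. In 4 of 5 DOX tumours it was above every control, and DOX 2 lay just below no_DOX 5. The fit gave a log2 fold change of 0.23 (SE 0.07), with an edgeR quasi-likelihood p of 0.0101, the smallest of the 42 genes, and a Benjamini-Hochberg adjusted p of 0.238. Of its stretches of 75 bases, 10.4% also occur in other genes. Its exons also share up to 857 bases with Smu1 and Gm6297 on the opposite strand, and the strand setting of the counting is not stated. Dnajb1, the heat-inducible J-domain partner of HSP70, and Bag3, which links HSP70 to autophagy, differed by 0.20 (SE 0.13) and 0.22 (SE 0.15) on the log2 scale, with overlapping groups.

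Hspa8 (HSC70; chr9:40800984-40810087, plus strand), the constitutive HSP70, was at 722, 624, 620, 817 and 694 CPM in no_DOX 1 to 5 and at 591, 725, 593, 557 and 777 CPM in DOX 1 to 5. DOX 2 and DOX 5 were among the highest tumours and the other 3 DOX tumours were below every control. The log2 fold change of -0.10 (SE 0.11) went with an edgeR quasi-likelihood p of 0.386 and a Benjamini-Hochberg adjusted p of 0.669, and 32.8% of its stretches of 75 bases also occur in other genes. Hspa4 and Hsph1, nucleotide exchange factors of HSP70, both had a log2 fold change of -0.06.

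The inducible HSP70 genes separated single tumours and not the groups. Hspa1a (chr17:34969190-34972156, minus strand) was at 5.98, 2.86, 17.7, 1.97 and 1.79 CPM in no_DOX 1 to 5 and at 4.32, 5.50, 4.64, 2.65 and 12.5 CPM in DOX 1 to 5. Hspa1b (chr17:34956436-34959238, minus strand) was at 13.8, 6.65, 43.4, 4.63 and 7.76 CPM in no_DOX 1 to 5 and at 13.7, 13.5, 12.4, 11.7 and 30.7 CPM in DOX 1 to 5. For both genes no_DOX 3 was the highest tumour and DOX 5 the next, and no_DOX 4 was the lowest or next to the lowest. Their log2 fold changes were -0.03 (SE 0.64) and 0.11 (SE 0.57), and neither sign was stable. Hspa1a turned higher in 7 of 19 alternatives, among them scaling by library size alone, the voom fit and leaving out no_DOX 3, DOX 1, DOX 3 or DOX 4. Hspa1b turned lower in 5 of 19, which left out no_DOX 2, no_DOX 4, no_DOX 5, DOX 5, or both no_DOX 4 and DOX 5. The genes share 54.2% and 55.8% of their stretches of 75 bases with other genes, mostly with each other, so the division of reads between them is uncertain. Hspa1b exceeded Hspa1a by 2.31 to 4.43-fold within each tumour. Hspa1a, Hspa1b and Hspa5 were named after their values were seen.

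**Figure D4:**
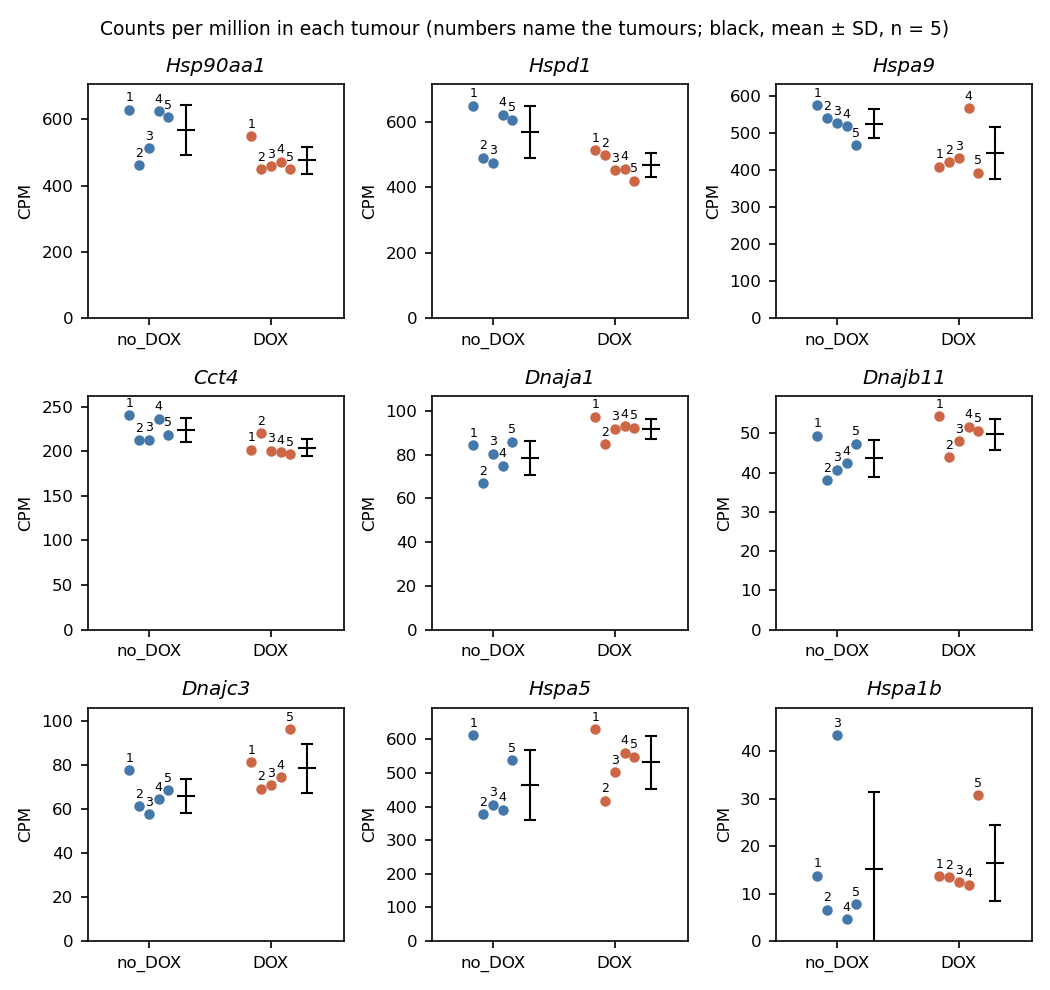
CPM of 9 genes in each tumour (numbers beside the points name the tumours), with the mean ± SD of each group of 5 in black; each y axis begins at 0 and the SD of Hspa1b in controls reaches below it. DOX 1 in Hsp90aa1, DOX 4 in Hspa9 and DOX 2 in Cct4 stand above the other DOX tumours, and no_DOX 3 and DOX 5 stand apart in Hspa1b.

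The small heat shock proteins hold unfolded proteins without ATP. Hspb1 (HSP25; chr5:135887919-135889563, plus strand) was at 12.0, 6.06, 35.4, 6.78 and 9.20 CPM in no_DOX 1 to 5 and at 19.98, 13.1, 20.2, 22.0 and 24.9 CPM in DOX 1 to 5. All 5 DOX tumours were above 4 of the controls and below no_DOX 3. As a log2 fold change this was 0.53 (SE 0.44), with an edgeR quasi-likelihood p of 0.254 and a Benjamini-Hochberg adjusted p of 0.560. This value rested on no_DOX 3, since without that tumour the log2 fold change of Hspb1 was 1.23 with an unadjusted edgeR quasi-likelihood p of 0.000415. Without both no_DOX 4 and DOX 5, the log2 fold change was 0.27. Over the 19 alternatives the Benjamini-Hochberg adjusted p of Hspb1 ran from 0.0611, in voom, to 0.894, so none was under 0.05. Of the stretches of 75 bases in Hspb1 transcripts, 46.4% also occur in the pseudogene Hsp25-ps1. Hspb8, a partner of Bag3 and the lowest member with 11 to 59 counts per tumour, had a log2 fold change of -0.37 (SE 0.23). Hsf1 (chr15:76477422-76501913, plus strand) was at 50.3, 43.3, 46.2, 53.4 and 50.7 CPM in no_DOX 1 to 5 and at 51.5, 51.9, 49.5, 48.7 and 46.3 CPM in DOX 1 to 5. Those values overlapped fully, with a log2 fold change of 0.02 (SE 0.07), and transcript level does not report on Hsf1 activity, which is set on the protein.

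In the ER, all 9 genes of the HSP70 and HSP90 machinery were higher in DOX tumours by fitted fold change, except that Hsp90b1 was level with the controls in the voom fit (log2 fold change -0.00) and Dnajb9 was lower when DOX 5 or no_DOX 4 was left out. Their log2 fold changes ran from 0.03 for Dnajb9 to 0.28 for Manf with a median of 0.19. At an unadjusted edgeR p under 0.05, 2 of 9 were higher, beside 8.2% of all genes. Dnajc3 (p58IPK; chr14:118937976-118981697, plus strand), an ER J-domain protein that works with BiP, was at 77.4, 61.2, 57.4, 64.4 and 68.5 CPM in no_DOX 1 to 5 and at 81.1, 69.1, 70.8, 74.3 and 96.1 CPM in DOX 1 to 5. DOX 5 was the highest tumour and all DOX tumours were above 4 of the controls, while no_DOX 1 lay above 3 of them. The fitted log2 fold change was 0.25 (SE 0.11), with an edgeR quasi-likelihood p of 0.0376 and a Benjamini-Hochberg adjusted p of 0.289.

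Dnajb11 (ERdj3; chr16:22857845-22879634, plus strand), another BiP partner, was at 49.4, 38.1, 40.8, 42.5 and 47.4 CPM in no_DOX 1 to 5 and at 54.3, 44.0, 48.0, 51.7 and 50.7 CPM in DOX 1 to 5. In 3 of 5 DOX tumours it was above every control. On the log2 scale the difference was 0.19 (SE 0.09), with an edgeR quasi-likelihood p of 0.0488 and a Benjamini-Hochberg adjusted p of 0.310. Hspa5 (BiP; chr2:34771970-34777547, plus strand), the HSP70 of the ER that also holds the sensors inactive, was at 612, 378, 405, 390.4 and 537 CPM in no_DOX 1 to 5 and at 629, 417, 502, 560.4 and 548 CPM in DOX 1 to 5. The controls split, with no_DOX 1 and no_DOX 5 among the DOX values and the other 3 below every DOX tumour. The log2 fold change of Hspa5 was 0.19 (SE 0.15), with an edgeR quasi-likelihood p of 0.229 and a Benjamini-Hochberg adjusted p of 0.538.

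Hsp90b1 (GRP94; chr10:86690209-86705509, minus strand), the HSP90 of the ER, was at 750.5, 525, 587, 538 and 725 CPM in no_DOX 1 to 5 and at 786, 558, 623, 743 and 667 CPM in DOX 1 to 5. The same controls, no_DOX 1 and no_DOX 5, were among the highest tumours. DOX over no_DOX, the log2 fold change was 0.11 (SE 0.13), with an edgeR quasi-likelihood p of 0.396 and a Benjamini-Hochberg adjusted p of 0.677. Hsp90b1 stood in a narrow ratio to Hspa5 CPM, from 1.22 to 1.45 over the 10 tumours. Hyou1, the exchange factor of BiP, Sdf2l1, a BiP cofactor, Creld2 and Manf, both known as secreted proteins induced by ER stress, had log2 fold changes of 0.19, 0.16, 0.21 and 0.28, with overlapping groups and unadjusted edgeR quasi-likelihood p from 0.0744 for Manf to 0.238 for Sdf2l1.

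The lectin chaperones and disulfide isomerases, 6 genes, were higher or level in DOX tumours. Their log2 fold changes ran from 0.00 for P4hb to 0.24 for Pdia4, with a median of 0.14. At an unadjusted edgeR p under 0.05, 0 of 6 were higher, beside 8.2% of all genes. Canx and P4hb lay slightly below the controls in the voom fit, and 1 or both did so without no_DOX 2, 3, 4 or 5 or without DOX 1, 4 or 5. Calr (calreticulin; chr8:84841850-84846934, minus strand), which binds glycoproteins through their sugar chains and stores ER calcium, was at 559.8, 434, 419, 447 and 559.8 CPM in no_DOX 1 to 5 and at 618, 423, 494, 559 and 567 CPM in DOX 1 to 5. The tumours that were high for Hspa5, no_DOX 1, no_DOX 5 and DOX 1, 4 and 5, were high here too. The fit gave a log2 fold change of 0.14 (SE 0.12), with an edgeR quasi-likelihood p of 0.275 and a Benjamini-Hochberg adjusted p of 0.579. Pdia4, Pdia6 and Pdia3, which form and rearrange disulfide bonds, differed by 0.24 (SE 0.11), 0.17 (SE 0.12) and 0.14 (SE 0.12) on the log2 scale, and the log2 fold changes of Canx, the membrane-bound partner of calreticulin, and P4hb (protein disulfide isomerase) were 0.02 (SE 0.08) and 0.00 (SE 0.06).

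The sensors and regulators of the unfolded protein response went both ways. Atf6 (chr1:170704674-170867771, minus strand), the sensor that is cut in the Golgi to free a transcription factor, was at 46.5, 50.8, 51.3, 46.5 and 47.8 CPM in no_DOX 1 to 5 and at 51.2, 51.7, 50.4, 57.7 and 56.1 CPM in DOX 1 to 5. In 3 of 5 DOX tumours it was above every control, and DOX 4 and DOX 5 were the highest. As a log2 fold change this was 0.14 (SE 0.06), with an edgeR quasi-likelihood p of 0.0407 and a Benjamini-Hochberg adjusted p of 0.295. Xbp1 (chr11:5520659-5525893, plus strand) was at 228, 265, 224, 311 and 189 CPM in no_DOX 1 to 5 and at 221, 209, 209, 202 and 237 CPM in DOX 1 to 5. In the edgeR fit it was the only ER gene with a negative log2 fold change, -0.17 (SE 0.12), with no_DOX 4 the highest tumour and no_DOX 5 the lowest, an edgeR quasi-likelihood p of 0.160 and a Benjamini-Hochberg adjusted p of 0.461. These are gene counts, which do not separate the spliced form of Xbp1. Ern1, the kinase and nuclease that splices Xbp1, had a log2 fold change of 0.21 (SE 0.11), and Herpud1, a membrane protein of ER-associated degradation, 0.11 (SE 0.14).

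By tumour, the level of the ER genes varied within both groups. Their summed CPM was 4616, 3565, 3671, 3677 and 4333 in no_DOX 1 to 5 and 4789, 3696, 4037, 4496 and 4376 in DOX 1 to 5. DOX 1 was the highest tumour for 10 of the 19 ER genes, and no_DOX 2 was the lowest for 7. Above its mean over the 10 tumours were 17 of 19 ER genes in DOX 5, 16 in DOX 4 and 15 each in DOX 1 and no_DOX 1, and only 5 in DOX 2, 4 in no_DOX 3, 3 in no_DOX 2 and 2 in no_DOX 4. For the mitochondrial genes the summed CPM was 1325, 1101, 1079.8, 1231 and 1162 in no_DOX 1 to 5 and 1005, 998, 959.8, 1103 and 887 in DOX 1 to 5. The highest DOX tumour, DOX 4, lay just above no_DOX 2 and no_DOX 3, and the other 4 DOX tumours lay below every control. The control no_DOX 1 was the highest tumour for all 3 mitochondrial genes and was also above the mean for 15 of the 19 ER genes.

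**Figure D5:**
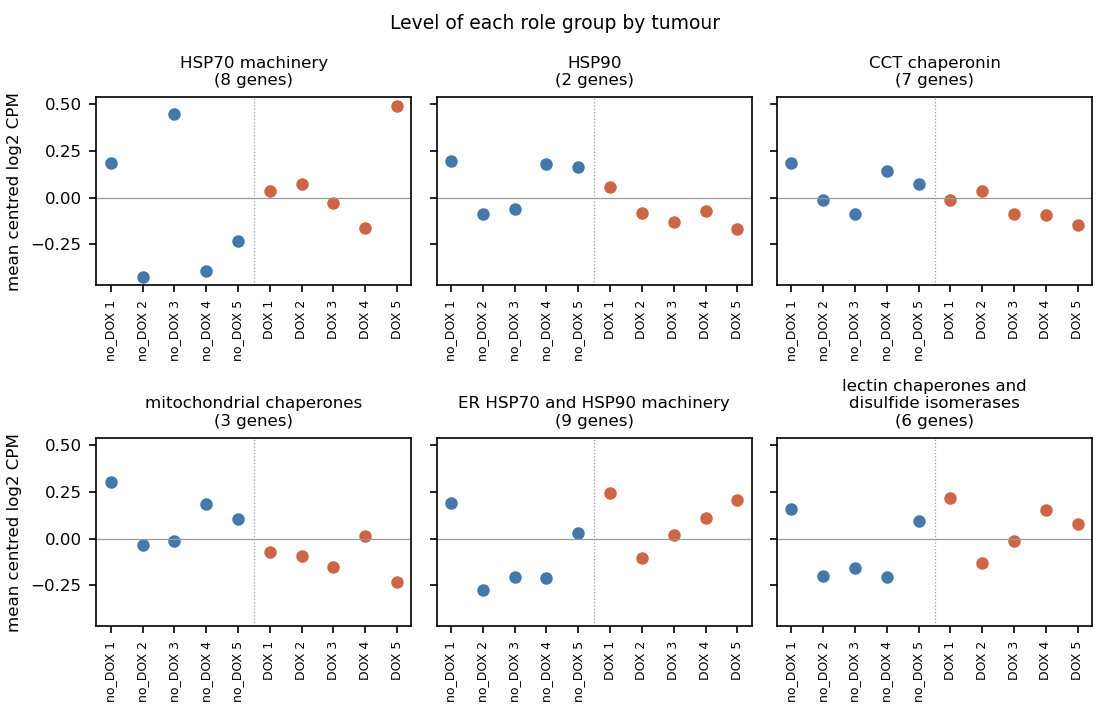
Level of 6 role groups in each tumour (x axis; blue no_DOX, orange DOX), as the mean over the group's genes of log2 CPM centred on the 10 tumours (y axis). DOX tumours lie mostly below the controls for the mitochondrial chaperones, while for the ER groups no_DOX 1 and no_DOX 5 lie among the DOX tumours and DOX 2 lies among the controls.

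Other genes of these pathways, 102 in 6 lists, were examined for the same contrast, and 101 passed the filter on low counts. The edgeR quasi-likelihood test with Benjamini-Hochberg adjustment called 0 of them, DESeq2 called 3 (Cryab, Hsf2 and Ube2j1), which is 2.97% against 1.99% of all genes, and voom called 3, among them Cryab and Fkbp4, which is 2.97% against 4.79%. At an unadjusted p under 0.05, 10 were lower (9.9% against 7.83% of all genes) and 12 higher (11.9% against 8.2%). The same shares over all genes, 7.83% lower and 8.2% higher, are the background for the counts of each list that follows. Of 13 genes of mitochondrial protein quality control, 12 were lower and 1 higher by fitted fold change, the median being -0.15, and 5 (38.5%) were lower at an unadjusted p under 0.05. They were Trap1, the HSP90 of mitochondria, Clpb, Lonp1 and Htra2, which disaggregate or degrade proteins, and Dnaja3, the J-domain partner of Hspa9. Trap1 was at 150.1 ± 10.9 CPM in no_DOX and 130.4 ± 10.99 CPM in DOX tumours, a log2 fold change of -0.20 (SE 0.07), and Clpb was at 51.9 ± 3.80 and 45.6 ± 1.90 CPM, a log2 fold change of -0.19 (SE 0.06). Both had overlapping groups, with Benjamini-Hochberg adjusted edgeR p of 0.245 and 0.239.

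ER-associated degradation, which sends misfolded ER proteins to the proteasome, had 15 of 16 genes higher by fitted fold change, with a median of 0.07, and 4 (25%) were higher at an unadjusted p under 0.05 (among them Ube2j1, Syvn1 and Edem1). The ubiquitin-conjugating enzyme gene Ube2j1 was at 40.8, 42.4, 39.1, 39.2 and 44.0 CPM in no_DOX 1 to 5 and at 51.3, 46.6, 45.2, 49.8 and 52.1 CPM in DOX 1 to 5. Every DOX tumour was above every control. The fitted log2 fold change was 0.25 (SE 0.06), with Benjamini-Hochberg adjusted p of 0.196 in edgeR and 0.0215 in DESeq2.

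ER folding enzymes and cofactors (20 genes) had 13 genes higher and 7 lower, with 3 (15%) higher at an unadjusted p under 0.05, Prkcsh, Txndc11 and Dnajc10. Prkcsh, a subunit of glucosidase II, which trims the sugar chains that calnexin and calreticulin read, was at 83.0 ± 4.04 CPM in no_DOX and 91.7 ± 1.10 CPM in DOX tumours, and every DOX tumour was above every control. On the log2 scale the difference was 0.14 (SE 0.05) with a Benjamini-Hochberg adjusted edgeR p of 0.239, and that of Txndc11 was 0.19 (SE 0.07) with 0.244. In the list of the PERK branch and other stress sensors (14 genes), 8 were higher and 6 lower, and 1 was higher (7.14%) and 2 lower (14.3%) at an unadjusted p under 0.05. Trib3, a pseudokinase induced in the PERK branch, was at 35.4 ± 6.88 CPM in no_DOX and 45.1 ± 5.17 CPM in DOX tumours, a log2 fold change of 0.35 (SE 0.13), and Mbtps2, the protease that cuts Atf6, had -0.17 (SE 0.06).

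The list of cytosolic co-chaperones and other cytosolic chaperones (30 genes, in which the heat shock factor gene Hsf2 was counted too) had 16 genes lower and 14 higher. At an unadjusted p under 0.05, 3 were lower (10%; Ahsa1, Fkbp4 and Bag1) and 4 higher (13.3%; Cryab, Hsf2, Unc45a and Dnajb2). Cryab, a small heat shock protein also known as alpha-B crystallin, was at 4.81, 5.03, 6.08, 2.84 and 6.46 CPM in no_DOX 1 to 5 and at 16.1, 5.30, 11.7, 15.0 and 11.2 CPM in DOX 1 to 5. In 4 of 5 DOX tumours it was above every control, and DOX 2 lay among the controls. DOX over no_DOX, the log2 fold change was 1.23 (SE 0.30), with adjusted p of 0.196 in edgeR, 0.00992 in DESeq2 and 0.0370 in voom. Hsf2, a second heat shock factor, was at 15.6 ± 1.56 CPM in no_DOX and 19.8 ± 1.24 CPM in DOX tumours, and every DOX tumour was above every control. The log2 fold change of Hsf2 was 0.34 (SE 0.09), with adjusted p of 0.196 in edgeR and 0.0283 in DESeq2. Of 9 further CCT and prefoldin subunits, 8 were tested, 5 were lower and 3 higher, and 0 had an unadjusted p under 0.05, among them Pfdn2 at a log2 fold change of -0.14 and Cct6a at -0.13.

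Markers of the cells in the tumours differed between the same groups. All 5 epithelial keratin and adhesion markers were higher in DOX tumours by fitted fold change, with 1 at an unadjusted p under 0.05, and their summed CPM was 1041 to 1535 in controls and 1092 to 1749.5 with doxycycline. All 4 basal markers were higher as well, with 0 at an unadjusted p under 0.05, and their summed CPM ran from 41.6 to 227 and from 63.8 to 449. All 7 fibroblast markers were lower, 4 of them at an unadjusted p under 0.05, with 2125 to 4056 CPM in controls and 834 to 1824 CPM with doxycycline, ranges that did not overlap. Most of this sum came from the collagen genes Col1a1, Col1a2 and Col3a1, with control means of 1576, 930 and 503 CPM. The 4 fibroblast markers at an unadjusted p under 0.05 were not all collagen genes. DESeq2 called 3 of the 7 and voom called 4, against 1.99% and 4.79% of all genes. Dcn, Pdgfra and Pdgfrb had log2 fold changes of -0.83, -0.48 and -0.07, with overlapping groups and unadjusted edgeR quasi-likelihood p of 0.129, 0.172 and 0.583. All 5 endothelial markers were lower, 3 at an unadjusted p under 0.05, with 86.5 to 115 and 68.1 to 92.9 CPM. Of 10 B cell and plasma cell markers, of interest because plasma cells hold a large ER, 4 passed the filter on low counts, Sdc1, Jchain, Ighm and Igkc. All 4 were higher in DOX tumours by fitted fold change, with a median of 0.99 on the log2 scale and 0 at an unadjusted p under 0.05. The summed CPM of the 10 was 54.5 to 130 in controls and 68.7 to 251 with doxycycline, most of it from Sdc1, which epithelial cells express too, at 83.0 ± 32.4 and 113 ± 46.7 CPM. DOX 5 was the highest tumour for Igkc at 41.1 CPM, Ighm at 11.7 CPM and Jchain at 7.67 CPM. In DOX 1 to 4, Igkc was at 0.594, 0.300, 0.943 and 0.930 CPM, beside a control mean of 2.32 CPM. Ms4a1, Mzb1, Cd79a and Cd79b were near 0, at 0 to 8 counts in each tumour. Of 5 milk secretion genes tested, all were lower in DOX tumours, 2 at an unadjusted p under 0.05, and the summed CPM of all 6 on the list was 1129 to 1810.3 in controls and 1137 to 2008 with doxycycline. Most of that sum came from Csn3, at 1375 ± 319 and 1351 ± 350 CPM, with a log2 fold change of -0.03. Macrophage markers were higher for 5 of 6 genes, 1 at an unadjusted p under 0.05, and T cell markers were lower for 4 of 5, with 0 at that threshold. Of 10 immediate-early genes linked to tissue handling, such as Fos, 6 were higher and 4 lower, with 272 to 490 CPM in controls and 257 to 471 CPM with doxycycline. The part of these cell types and of handling in the chaperone values was not tested.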

How the data were processed

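The values deposited by the authors were raw counts of reads for each Ensembl gene in 5 DOX and 5 no_DOX tumours. Per the labels' protocols, directional libraries were made after removal of ribosomal RNA and read single-end to 75 bases on a NextSeq500. Per the submitters' processing notes, the build was GRCm38 and the tools included STAR 2.6.0c, featureCounts, Trimmomatic, bcl2fastq and DESeq2. Which annotation release and strand setting were used is not given in the sources used here. A name table gave symbols for 55154 of 55335 identifiers; coordinates, exon lengths and shared stretches of 75 bases came from GENCODE M21 on GRCm38, and promoters from RefSeq on GRCm38.p6.

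Groups were tested over all genes with edgeR 4.0.16 in R 4.3.3 (TMM scaling, filterByExpr with a minimum count of 10 and a minimum total of 15, two-sided quasi-likelihood test, Benjamini-Hochberg adjustment, threshold 0.05) without a block. For CPM, counts were divided by the TMM-adjusted library size, and ± is the SD. Standard errors were obtained by dividing a log2 fold change by the root of its F statistic. Chi-square per degree of freedom was 6.76 to 41.9 for the 20 pairs of libraries within groups, above sampling noise. Each library counted as a sample, although this does not show separate hosts, since tumours of the same host could exceed sampling noise too. The alternatives were DESeq2 1.42.0, limma 3.58.1 voom with sample weights, other scalings, filters and thresholds, a robust fit, a replicate block, and tumours left out. The code was tested on simulated data.

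The members and lists were chosen with earlier results of these data known. Genes given by tumour were, in each role group, up to 4 with the smallest unadjusted p under 0.05 and the one with the highest level per exon length, and the 2 with the smallest p of each further list; genes outside this rule are given because a statement turns on them, chosen after their values were seen. Of the further genes and the markers, 2 that entered the counts are not reported here on their own.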

Additional observations from a re-analysis of the deposited data

Results flagged for a closer look

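Within a group of 5 tumours, a single tumour stood far from the other 4 in 8 of 116 groups examined, where chance gives about 1 in 20. Hspa1a was at 17.7 CPM in no_DOX 3 (next control 5.98) and at 12.5 CPM in DOX 5 (next DOX tumour 5.50). Hspa1b was at 43.4 CPM in no_DOX 3 (next 13.8) and at 30.7 CPM in DOX 5 (next 13.7), and Hspb1 at 35.4 CPM in no_DOX 3 (next 12.0). Hsp90aa1 was at 549 CPM in DOX 1 (next 472), Cct4 at 221 CPM in DOX 2 (next 202) and Hspa9 at 568 CPM in DOX 4 (next 433). The tumour no_DOX 3 recurred for Hspa1a, Hspa1b and Hspb1, and DOX 5 recurred for Hspa1a and Hspa1b. The reads of Hspa1a and Hspa1b cannot be fully told apart.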

How the results depend on the processing

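Over all genes edgeR called 0, also with the robust option, other scalings, other filters or a threshold of 0.1, while DESeq2 called 322, voom with sample weights 775 and the fit with a replicate block 7 (4 higher, 3 lower). With each tumour left out, 0 to 37 genes were called, 37 without no_DOX 3 and 2 without DOX 2. Of the 42 chaperone genes, 5 were lower and 4 higher at an unadjusted p under 0.05; these counts became 13 and 2 in voom (14.2% and 13% of all genes), 1 lower with library size alone (4.59% of all genes), 3 lower without a filter (4.44%), 9 higher with the replicate block (9.15%), 1 lower and 1 higher without both no_DOX 4 and DOX 5 (4.23% and 4.3%; chosen after seeing the data), and 1 to 7 lower and 1 to 8 higher with each tumour left out (5.06 to 10.9% and 5.52 to 10.3%). The lowest count of lower genes, 1, came without no_DOX 1 or without DOX 3, and the lowest count of higher genes, 1, without no_DOX 4 or without DOX 5. Hspd1 stayed among the lower genes with each tumour left out, and Dnaja1 among the higher genes under every alternative. The compartment medians kept their sign under every alternative, from -0.14 to -0.04 for cytosolic, -0.28 to -0.20 for mitochondrial and 0.06 to 0.21 for ER genes. Of the 42 genes, 33 kept their sign under all 19 alternatives that refit the genes. Signs turned in at least 1 for Hspa1a (7), P4hb (8), Canx (5), Hspa1b (5), Dnajb9 (3), Hsph1 (1, without no_DOX 1) and Herpud1 (1, without both no_DOX 4 and DOX 5), and, among the genes given by tumour under the naming rule, for Hsp90b1 in voom (-0.00077) and for Hsf1 without no_DOX 2 (-0.0165) or without no_DOX 3 (-0.0012), where leaving out each tumour gave -0.0165 to 0.0541, and the cause was not tested. Same-numbered tumours of both groups correlated at 0.264, 0.244, 0.127, 0.122 and 0.0706 in their deviations from group means, and 2 of 5 no_DOX tumours correlated best with their own number, so the numbers were not taken as pairs. Depth limits mainly Hspb8, Hspa1a and Hspa1b, with as few as 11, 34 and 80 counts in a tumour. No alternative was left out.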
